A study of Homo sapiens with 6 samples.

Results

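The 31 genes described here belong to the hypoxia pathway: the subunits of the hypoxia-inducible factor (HIF), the enzymes that set its stability and activity, and genes that HIF is known to induce. They were taken by symbol from the 59248 symbols of the deposited table, which held all 31. The series holds 6 RNA-seq libraries of Jurkat, an established line grown from a human T-cell leukemia. In 3 of them the cells overexpressed a splicing isoform of PDCD1 (its product, PD-1, restrains T cell activation), and the other 3 are labelled vector, the control. The growth protocol names the cells of both groups Jurkat KO-1 without saying what the addition means, and gives 5% CO2 and no oxygen level. Libraries are numbered within each group, but no label ties a number to a culture of its own. The p-values therefore speak of the scatter among these 6 libraries, part or all of which may be technical. In bulk RNA, fewer cells expressing a gene and less of its RNA per cell cannot be told apart.

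In cells with oxygen, the prolyl hydroxylases encoded by EGLN1, EGLN2 and EGLN3 mark the HIF alpha subunits (HIF1A, EPAS1) for VHL, which directs their degradation, and the hydroxylase encoded by HIF1AN blocks their contact with coactivators. When oxygen is low the alpha subunits persist, pair with ARNT and bind short DNA motifs near genes of glucose use, mitophagy, blood vessel growth and matrix. Much of the control of HIF lies in the stability of its proteins, which RNA counts do not measure, and several induced genes, EGLN1 and EGLN3 among them, feed back on the pathway.

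The libraries held between 59911578 and 84220970 estimated counts. PDCD1, the check of the labels, had 945, 1059 and 807 estimated counts in overexpression and 14, 18 and 15 in vector. All 13 T cell markers were detected and tested, with a summed level of 2900 to 2950 CPM in overexpression and 3020 to 3240 CPM in vector (CPM, counts scaled to a common library size after normalization by the trimmed mean of M-values, TMM). Of these markers 2 rose and 8 fell (76.9%, against 46.1% of all genes tested). The largest log2 falls were those of CD2 (-2.6) and CD7 (-2.1). Myeloid markers summed to at most 2.12 CPM in any library, with 1 of 3 tested falling and the others not called. Epithelial and kidney line markers summed to at most 3.71 CPM, with EPCAM at 0 throughout. Of the 2 tested from that list, KRT8 rose and MUC1 fell. Of the fibroblast and endothelial markers COL1A2, DCN and CDH5 were at 0 in all libraries. Their sum of 131 to 146 CPM in vector and 39.3 to 43.8 CPM in overexpression was mostly PECAM1, which leukocytes also express, and 2 of the 3 tested fell. B cell markers summed to 41.8 to 60.1 CPM in vector and 28.9 to 37.0 CPM in overexpression, mostly CD79A. The part of these marker differences in the results below was not tested. Vector replicate 2 stood apart from the other vector libraries on the second principal component, which held 12.1% of the variance.

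Hypoxia genes changed in both directions. Of the 28 members that passed the expression filter, 6 rose in overexpression and 11 fell at an edgeR adjusted p under 0.05, or 60.7%. The same rule called 46.1% of all 21055 genes tested, 22.6% as higher and 23.4% as lower. Under a stricter filter that keeps only well-expressed genes the shares were 69.2% of 26 members and 58.9% of all genes. The share of members lay above that of all genes under both filters. In the main fit much of that excess lay in the HIF subunits and the genes of oxygen sensing and HIF turnover. Of the 3 HIF subunit genes 1 rose and 2 fell, and of the 5 oxygen sensing and turnover genes 1 rose and 3 fell. Among the 20 other members tested, 4 rose and 6 fell, a share closer to that of all genes. The 2 groups of libraries did not overlap for 17 members (60.7%), against 58.7% of all genes, 30.1% higher and 28.6% lower. A called change of at least 1.5-fold was found in 7 members (25.0%), close to the 25.4% of all genes. The median log2 fold change was -0.19 over the members tested and 0.02 over all genes. Without the HIF subunit, oxygen sensing and turnover genes the median of the members was -0.01. CA9, P4HA2 and PLOD2 were not tested. VEGFA and AK4 had the largest rises and EPAS1, EGLN3 and EGLN1 the largest falls.

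**Figure D1:**
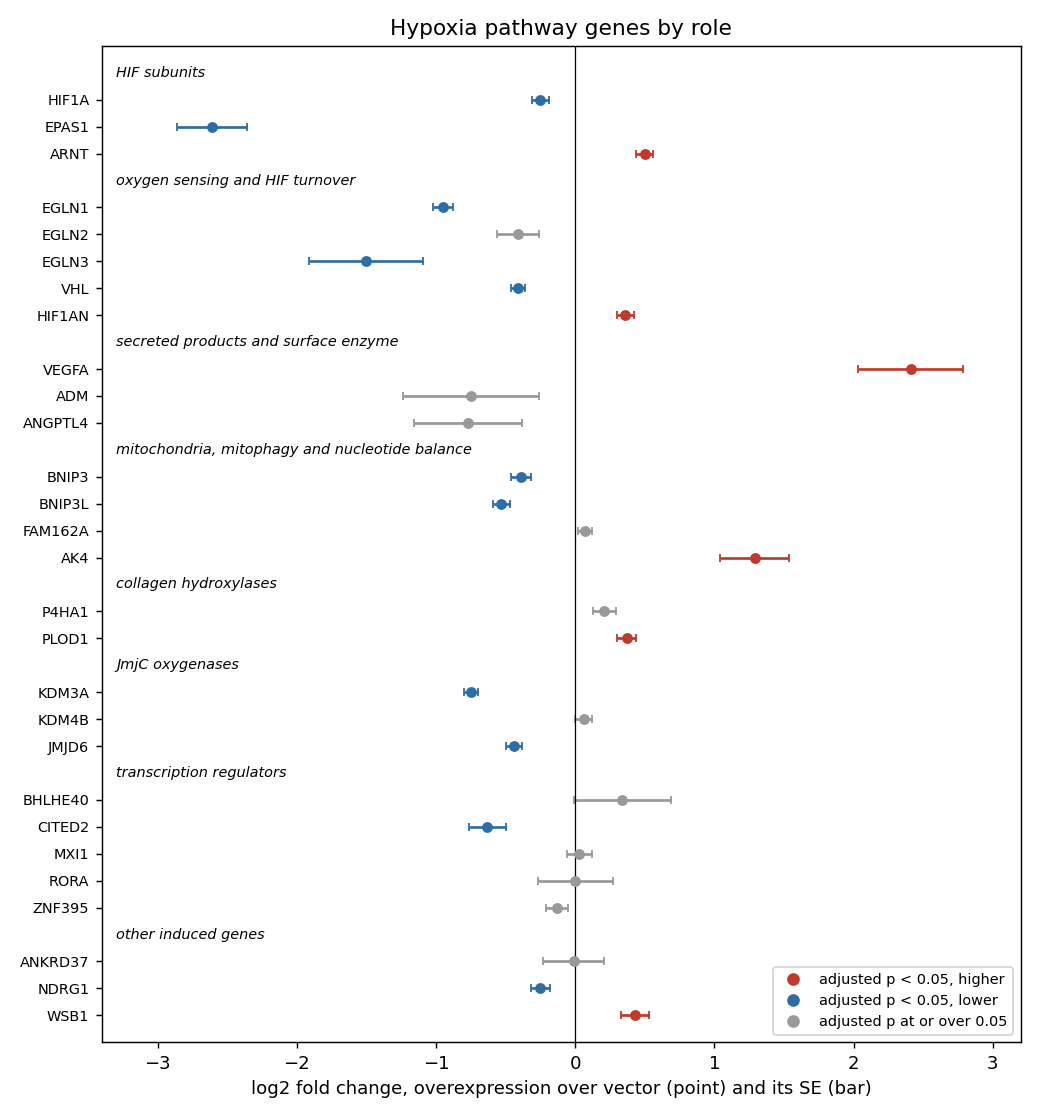
Fitted log2 fold change of overexpression over vector for the 28 members tested, grouped by role. Points are fitted values, bars their standard errors, and colours the edgeR call at an adjusted p of 0.05. VEGFA (2.41) and EPAS1 (-2.61) lie at the ends, and most members lie within 1 of 0.

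Among the HIF subunits the alpha subunit genes fell and ARNT rose. EPAS1 (chr2:46293667-46386703, plus strand, hg38), which encodes HIF-2 alpha, had 14.8, 26.3 and 15.6 CPM in the vector libraries and 2.68, 3.18 and 3.44 CPM in overexpression. The lowest vector library was thus over 4 times the highest overexpression library. The fitted fall was -2.61 ± 0.25 (log2 fold change ± SE; edgeR adjusted p = 8.91e-05). HIF1A, which encodes the broadly expressed alpha subunit, had 99.9, 93.8 and 107 CPM in vector and 84.0, 86.1 and 81.7 CPM in overexpression. The fall was small, at -0.25 ± 0.06 (adjusted p = 0.00772), but each overexpression library lay below each vector library. ARNT, the shared partner of the alpha subunits, had 58.7, 51.7 and 59.4 CPM in vector against 77.8, 80.1 and 82.2 CPM in overexpression, a rise of 0.50 ± 0.06 (adjusted p = 0.00045).

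The balance between the alpha subunit genes therefore differed between the groups. Per kilobase of annotated exon, HIF1A stood at 19.4 ± 1.24 CPM and EPAS1 at 2.59 ± 0.883 CPM in vector (SD, n = 3). In overexpression HIF1A stood at 16.3 ± 0.429 and EPAS1 at 0.425 ± 0.0531 CPM per kilobase. EPAS1 made up 9.44%, 16.5% and 9.39% of the sum of both genes in vector and 2.20%, 2.54% and 2.89% in overexpression. The vector value that stands out is that of replicate 2. Without that library the fall of EPAS1 was -2.30. These per-length levels use all annotated exons of a gene, so they depend on which transcripts the cells make.

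Of the genes for oxygen sensing and HIF turnover, EGLN1, EGLN3 and VHL fell and HIF1AN rose. EGLN1 (chr1:231363751-231425044, minus strand), the main prolyl hydroxylase gene for HIF1A in most cells, had 51.9, 60.2 and 56.0 CPM in vector and 28.7, 29.2 and 29.2 CPM in overexpression. The overexpression libraries were almost equal, and the fall was -0.95 ± 0.07 (adjusted p = 2.28e-05). EGLN3, a hydroxylase gene that HIF induces strongly, was low throughout, at 2.14, 5.28 and 2.37 CPM in vector and 0.770, 1.56 and 1.13 CPM in overexpression. Vector replicate 2 held over 2 times the level of the other vector libraries. The fall of EGLN3 was -1.50 ± 0.41 (adjusted p = 0.0175), and it lost its call without overexpression replicate 1 (adjusted p = 0.0682) or 3 (adjusted p = 0.066). The annotated span of EGLN3 (chr14:33924231-34462774, minus strand) overlaps SPTSSA on the same strand, at 21.3 CPM in vector and 28.9 CPM in overexpression, so reads in the shared span could be assigned to either.

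VHL, the substrate receptor of the ligase that removes HIF, had 230, 246 and 235 CPM in vector and 182, 179 and 173 CPM in overexpression, a change of -0.41 ± 0.05 (adjusted p = 0.000221). HIF1AN had 163, 143 and 167 CPM in vector and 204, 200 and 206 CPM in overexpression, a rise of 0.36 ± 0.06 (adjusted p = 0.00212). For both genes the groups were clearly apart, in opposite directions. Part of the HIF1AN span is shared with NDUFB8 on the opposite strand, at 46.8 CPM in vector and 42.6 CPM in overexpression.

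EGLN2, the third prolyl hydroxylase gene, cannot be read alone. It had 105, 101 and 92.7 CPM in vector and 93.8, 58.5 and 72.7 CPM in overexpression, with overlapping groups and a change of -0.41 ± 0.15 (adjusted p = 0.053). The table also lists RAB4B-EGLN2, a readthrough locus from RAB4B that contains the EGLN2 exons. It had 4.38, 9.31 and 17.5 CPM in vector and 4.82, 47.5 and 38.8 CPM in overexpression, with overlapping groups. Its change of 1.55 ± 0.75 was not called (adjusted p = 0.128). The libraries with the lowest EGLN2 had the highest readthrough value. The sum of both entries was 110 CPM in each vector library and 98.6, 106 and 112 CPM in overexpression. Fitted as 1 gene, a setting chosen after seeing the data, the change was -0.06 (adjusted p = 0.378). RAB4B itself rose, from 11.7 ± 2.88 to 27.8 ± 6.35 CPM (log2 fold change 1.25 ± 0.21, adjusted p = 0.00164).

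**Figure D2:**
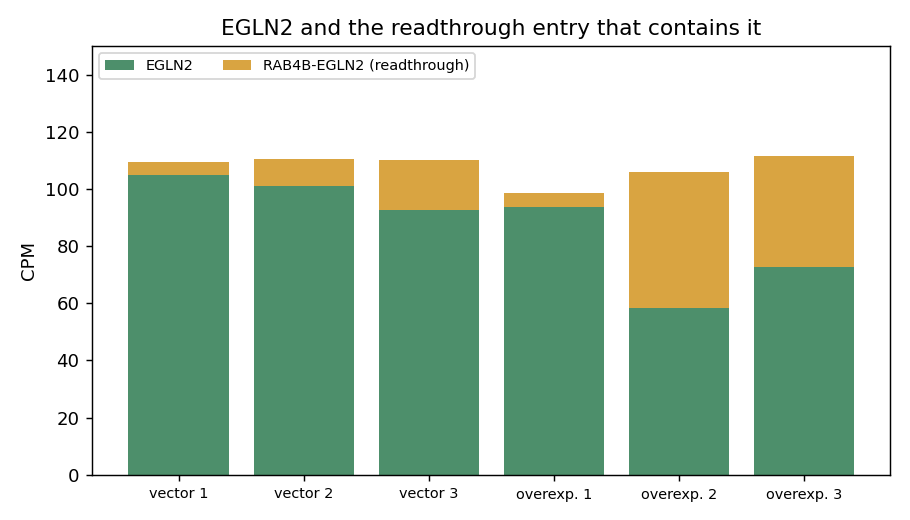
CPM of EGLN2 (green) and of the readthrough entry RAB4B-EGLN2 (yellow), stacked, in each of the 6 libraries. The split between the entries varies most in overexpression, while the stacked height stays between 98.6 and 112 CPM.

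Per kilobase of exon the order of the prolyl hydroxylase genes was the same in both groups. EGLN2 was highest (15.2 ± 0.973 CPM per kilobase in vector, SD, n = 3), EGLN1 followed (7.71 ± 0.575) and EGLN3 was far lower (0.443 ± 0.238). EGLN1 held 30.5%, 34.0% and 34.8% of their summed per-length level in vector and 21.6%, 30.6% and 26.4% in overexpression. Those shares overlap, since that of overexpression replicate 2 exceeded that of vector replicate 1, and they move with the EGLN2 split.

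HIF binds a core motif, ACGTG or GCGTG, and the stretches upstream of the genes show where those letters lie. RefSeq promoter sequences (GRCh38.p14) were matched for 25 of the 31 members, and the 250 bases before the outermost listed start were searched on both strands. For some members, RORA, EGLN3 and HIF1AN among them, those bases lay inside the annotated span of the gene. Sequence before the outer end of that span was not searched for them. ACGTG was found in 14 of the 25 (56.0%) and in 18.6% of 27305 genes, and GCGTG in 10 (40.0%) and in 31.9%. Many members are known HIF targets, so the listing itself favours the motif. CACGTG, the E-box of other factors such as MYC, holds ACGTG on both strands; it was found in 8 members (32.0%) and in 6.46% of all. ACGTG was present upstream of 2 of the 5 matched members that rose, 3 of the 7 that fell and 7 of the 10 that were tested and not called. The stretches of AK4, which rose, and of BNIP3 and CITED2, which fell, are shown because members that moved in opposite directions carried the same motif. Each begins 200 bases before the start and stops before any exon annotated by GENCODE, at chr1:65147352-65147501 (plus strand), chr10:131982014-131982123 (minus) and chr6:139374699-139374848 (minus). They read 5′ to 3′ on the strand of the gene, with either motif, on either strand, in capitals.
AK4: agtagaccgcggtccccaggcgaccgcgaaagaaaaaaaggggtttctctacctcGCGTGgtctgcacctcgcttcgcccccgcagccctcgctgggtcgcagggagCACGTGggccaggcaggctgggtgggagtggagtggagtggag
BNIP3: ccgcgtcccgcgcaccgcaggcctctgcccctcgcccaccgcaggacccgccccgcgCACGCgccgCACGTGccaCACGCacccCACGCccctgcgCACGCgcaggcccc
CITED2: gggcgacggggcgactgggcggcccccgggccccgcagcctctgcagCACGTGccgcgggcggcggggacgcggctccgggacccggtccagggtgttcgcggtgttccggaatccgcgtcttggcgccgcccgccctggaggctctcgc
All 3 stretches hold CACGTG, and BNIP3 also holds GCGTG 4 times on the opposite strand, on either side of it. A match marks letters only, and binding was not measured.

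Of the genes for secreted products and a surface enzyme, VEGFA rose and no other was called; ANGPTL4 and ADM stayed under 1 CPM and CA9 had no counts. VEGFA (chr6:43770184-43786487, plus strand), which encodes the main growth factor for blood vessels, had 4.14, 12.5 and 4.63 CPM in vector and 35.3, 40.4 and 38.2 CPM in overexpression. The overexpression libraries lay close together, while vector replicate 2 had nearly 3 times the level of the other vector libraries. The rise was 5.30-fold (log2 fold change 2.41 ± 0.38, adjusted p = 0.00135). Without vector replicate 2 it was 3.10 on the log2 scale. ANGPTL4, a secreted regulator of lipoprotein lipase, had 0.776, 0.992 and 0.725 CPM in vector and 0.755, 0.309 and 0.407 CPM in overexpression (-0.77 ± 0.39, adjusted p = 0.147). Its antisense neighbour RAB11B-AS1 had 2.49 CPM in vector and 2.90 CPM in overexpression. ADM, the gene of the vasodilator peptide adrenomedullin, stayed at or under 0.421 CPM in all libraries, with overlapping groups. CA9, which encodes a surface carbonic anhydrase widely used as a hypoxia marker, had 0 counts in all 6 libraries. If 1 read pair adds 4 estimated counts, which the files do not settle, a floor of 3 read pairs is 12 counts. On that reading 0 counts allow CA9 up to 0.149 to 0.207 CPM, depending on the library, for counting error only.

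Among the mitochondrial genes, AK4 rose while both mitophagy receptor genes fell. AK4 (chr1:65147549-65232145, plus strand), which encodes an adenylate kinase of the mitochondrial matrix, had 5.81, 10.9 and 5.50 CPM in vector and 17.5, 18.2 and 18.8 CPM in overexpression. Its pattern was like that of VEGFA, with tight overexpression libraries and a high vector replicate 2. The rise was 2.45-fold (1.29 ± 0.25, adjusted p = 0.0034). Its 6 annotated pseudogenes summed to 0.622 CPM in vector and 0.947 CPM in overexpression, small beside AK4. BNIP3, a mitophagy receptor gene, fell from 45.2 ± 2.63 to 34.6 ± 1.99 CPM (SD, n = 3; -0.39 ± 0.07, adjusted p = 0.00262). Its 39 pseudogene entries summed to 2.76 CPM in vector and 1.42 CPM in overexpression. BNIP3L, the related receptor gene that also clears mitochondria from maturing red cells, fell from 136 ± 2.12 to 94.0 ± 6.49 CPM (-0.53 ± 0.06, adjusted p = 0.000191). Its annotated span meets that of PNMA2 on the opposite strand, at 111 CPM in vector and 97.8 CPM in overexpression. FAM162A, a mitochondrial protein gene induced by HIF, was level at 54.4 ± 2.03 and 57.3 ± 2.01 CPM (adjusted p = 0.298).

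**Figure D3:**
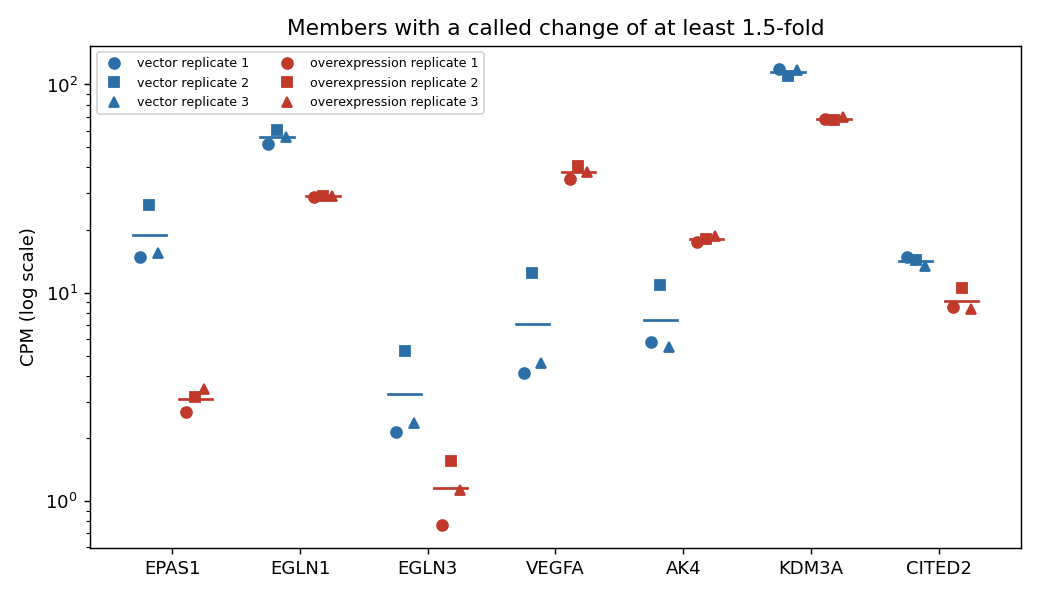
CPM of the 7 members with a called change of at least 1.5-fold, on a log axis, with 1 symbol per library and lines at the group means. In EPAS1, EGLN3, VEGFA and AK4 the square of vector replicate 2 lies above the other vector libraries, and no overexpression library reaches into the range of vector in any of the 7.

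The collagen hydroxylase genes split by level. PLOD1, a lysyl hydroxylase gene, rose from 28.8 ± 2.26 to 37.3 ± 0.978 CPM (SD, n = 3; 0.37 ± 0.07, adjusted p = 0.00396). P4HA1, the catalytic subunit of a collagen prolyl hydroxylase, had 27.5 ± 2.07 and 31.9 ± 2.30 CPM with overlapping groups (0.21 ± 0.08, adjusted p = 0.0691). It passed the threshold with upper-quartile scaling (adjusted p = 0.028), under the stricter filter (0.0425) and with values divided by 4 (0.0477). P4HA2 had 1, 11 and 1 estimated counts in vector and 17, 5 and 6 in overexpression, at most 17 against a floor of 12 on the same reading. PLOD2 had a single estimated count over all 6 libraries.

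Of the 3 oxygenase genes with a JmjC domain, KDM3A and JMJD6 fell and KDM4B was not called. KDM3A (chr2:86440647-86492716, plus strand), a histone H3 lysine 9 demethylase gene, had 119, 110 and 117 CPM in vector and 68.2, 67.5 and 69.6 CPM in overexpression. Each group was tight, and the fall of -0.75 ± 0.05 had the smallest adjusted p of all members (1.39e-05). JMJD6, which encodes a lysyl hydroxylase of splicing factors, fell from 47.6 ± 2.87 to 35.1 ± 0.445 CPM (-0.44 ± 0.06, adjusted p = 0.000745). KDM4B, another demethylase gene of lysine 9, had 102 ± 3.80 and 107 ± 5.81 CPM (0.06 ± 0.06, adjusted p = 0.387).

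Of the 5 transcription regulators, CITED2 fell and the others were not called. CITED2 (chr6:139371807-139374620, minus strand), which competes with HIF for the coactivators CREBBP and EP300, had 14.8, 14.3 and 13.5 CPM in vector and 8.59, 10.5 and 8.40 CPM in overexpression. The groups did not overlap, and the fall was -0.63 ± 0.13 (adjusted p = 0.00386). BHLHE40, a repressor gene induced by hypoxia, had 1.71, 3.80 and 1.51 CPM in vector and 2.59, 3.45 and 2.86 CPM in overexpression. Vector replicate 2 exceeded all overexpression libraries, and the change of 0.34 ± 0.35 was not called (adjusted p = 0.47). Without that library it was 0.87 (adjusted p = 0.0102). RORA, a nuclear receptor gene, had 80.2, 37.8 and 88.8 CPM in vector and 72.8, 70.3 and 63.0 CPM in overexpression. Here vector replicate 2 was the lowest of all libraries, and the change of -0.003 had an adjusted p of 0.993. Without that library it was -0.31 (adjusted p = 0.00451). MXI1, an antagonist of MYC, was level at 18.2 ± 1.08 and 18.6 ± 0.891 CPM (SD, n = 3), and ZNF395, a zinc finger gene, had 82.1 ± 9.41 and 75.0 ± 1.92 CPM (adjusted p = 0.215).

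Among the remaining induced genes, WSB1 rose and NDRG1 fell. WSB1, which encodes the substrate receptor of a ubiquitin ligase that targets VHL, had 156, 121 and 160 CPM in vector and 202, 202 and 186 CPM in overexpression. The groups were apart (0.43 ± 0.10, adjusted p = 0.00823), with vector replicate 2 the lowest library. NDRG1, a stress-responsive gene, fell from 54.5 ± 4.09 to 45.8 ± 2.46 CPM (SD, n = 3; -0.25 ± 0.07, adjusted p = 0.0204). It lost its call without overexpression replicate 2 (adjusted p = 0.0823) or 3 (0.0635) or vector replicate 3 (0.062). ANKRD37, an ankyrin repeat gene and a sensitive HIF target, had 3.11 ± 0.563 and 3.09 ± 0.536 CPM, with no call (adjusted p = 0.971). It shares part of its span with UFSP2 on the opposite strand, at 24.7 CPM in vector and 31.6 CPM in overexpression.

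The spread among the vector libraries was uneven across the members. Relative to the mean of the other vector libraries, vector replicate 2 held 2.86 times the VEGFA level, 2.37 times that of BHLHE40, 2.34 times that of EGLN3, 1.92 times that of AK4 and 1.73 times that of EPAS1. RORA was at 0.447 of that mean. BNIP3 (0.958), KDM3A (0.940), NDRG1 (0.899) and EGLN1 (1.12) were close to it. Of the 26 members with a mean of at least 1 CPM, 3 lay at least 2-fold above and 1 at least 2-fold below (ratios after adding 0.1 CPM). Over 14905 genes 1.60% lay that far above and 1.54% that far below. This describes a single library, and the labels give no difference in its handling.

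The neighbours of the members on the chromosome were shifted to differing degrees, in the direction of the member for some and against it for others. For each member the median log2 fold change of up to 20 tested protein-coding genes on either side was taken, members left out. The counts of neighbours below are of called genes. Over all genes tested, of any type, 22.6% were called higher and 23.4% lower. Around EGLN1 on chromosome 1 it was -0.61, and 31 of 40 neighbours fell. A local median of -0.6 or lower was found at 1.06% of 13620 genes, so EGLN1 lay in one of the most lowered stretches. EGLN1 itself, at -0.95, was below its neighbours. Around KDM3A on chromosome 2 the median was -0.33 with 23 of 40 lower, and around NDRG1 on chromosome 8 it was -0.31 with 22 of 40 lower; 11.2% of genes had a local median of -0.3 or lower. Around BNIP3 it was -0.29 and around CITED2 -0.26, and 18 of 40 neighbours of CITED2 fell. VHL and HIF1A, which fell, lay among neighbours with medians somewhat above 0. Around VHL the median was 0.20, with 15 higher and 8 lower, and around HIF1A it was 0.14, with 15 higher and 7 lower. For EPAS1 (0.003) and EGLN3 (0.008) the median was near 0. Around AK4 it was 0.12, similar to that of HIF1A, and around VEGFA it was 0.22 against 2.41 for the gene. ANKRD37 and FAM162A, which were not called, lay among neighbours with medians of 0.43 and 0.32. A local median of 0.3 or higher was found at 3.36% of genes. The part of these local shifts in the members' changes was not tested.

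**Figure D4:**
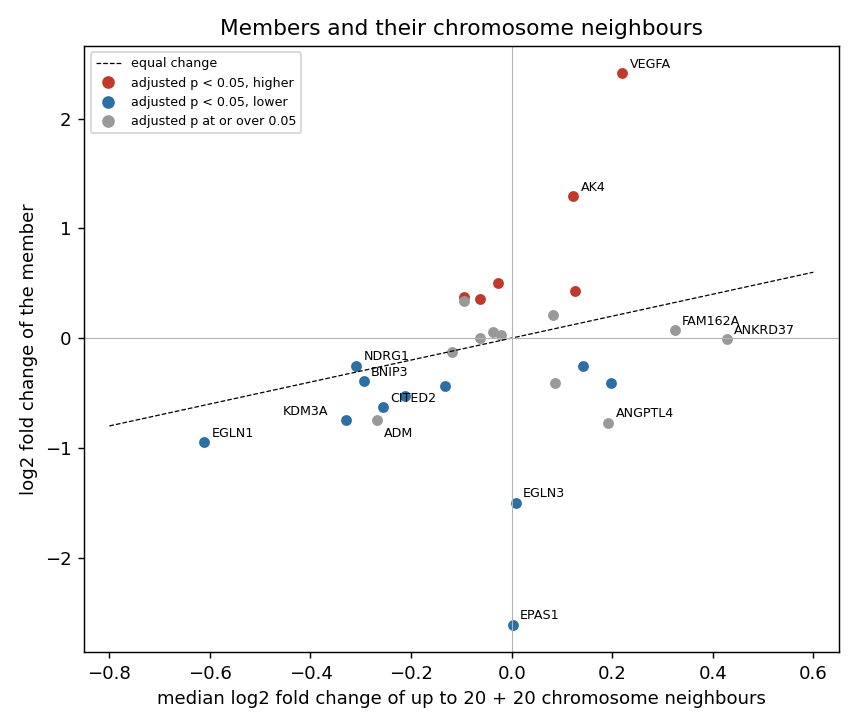
Log2 fold change of each of the 28 members tested against the median of its chromosome neighbours, coloured by call, with a dashed line at equal change. EGLN1 is farthest to the left (-0.61), while VEGFA, AK4, EGLN3 and EPAS1 lie far from the line.

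Other genes of the pathway were taken from 4 lists. Of the 20 HIF targets of glucose uptake and glycolysis, all tested, 13 fell and 3 rose. These are 80.0% of the list, against 46.1% of all genes called, 23.4% as lower. Under the stricter filter, which called 58.9% of all genes, 13 of the list fell and 3 rose. The median log2 fold change was -0.42, against 0.02 over all genes. The genes with the smallest adjusted p were LDHA (-1.07 ± 0.05) and PGAM1 (-0.91 ± 0.04) among those that fell, and PFKL (0.42 ± 0.07) and ENO2 (0.40 ± 0.07) among those that rose. LDHA, the lactate dehydrogenase gene, fell from 863 ± 37.8 to 410 ± 6.65 CPM (SD, n = 3). PFKFB3, which makes the strongest activator of phosphofructokinase, fell from 91.1 ± 0.839 to 41.7 ± 2.16 CPM (SD, n = 3). SLC2A1, the main glucose transporter gene, fell (-0.61 ± 0.08), and PDK1, the kinase gene that restrains pyruvate oxidation, rose slightly (0.19 ± 0.06, adjusted p = 0.0378). PFKFB3, SLC2A1 and PDK1 were named after their values were seen.

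Of 24 tested genes among 30 further hypoxia-induced genes, 4 rose and 12 fell, with a median of -0.24. These are 66.7%, against 46.1% of all genes. Under the stricter filter, which called 58.9% of all genes, 5 of them rose and 11 fell. VLDLR, a lipoprotein receptor gene, rose from 44.5 ± 5.70 to 137 ± 3.34 CPM (SD, n = 3), and NDUFA4L2, which encodes a mitochondrial protein that lowers complex I activity, rose from 2.67 ± 0.571 to 13.1 ± 0.470 CPM. Their log2 fold changes were 1.62 ± 0.09 and 2.29 ± 0.18. TFRC, the transferrin receptor gene, fell from 589 ± 104 to 186 ± 3.64 CPM (-1.66 ± 0.11). The rises of VLDLR and NDUFA4L2 lay between those of AK4 and VEGFA.

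Among partners, cofactors and the VHL ligase, 2 of 14 tested genes rose and 3 fell (35.7%, below the 46.1% of all genes), with a median of -0.03. The coactivator genes CREBBP (-0.03 ± 0.04, adjusted p = 0.568) and EP300 (-0.11 ± 0.05, adjusted p = 0.0986) were not called. USP20, a deubiquitinase gene, fell from 184 ± 10.0 to 100 ± 5.67 CPM (SD, n = 3), a log2 fold change of -0.87 ± 0.06. Its neighbours had a median of -0.48, and 27 of 40 fell, against 23.4% of all genes called lower. RBX1, the RING subunit of the VHL ligase, fell by 0.33 on the log2 scale, while SENP1, a SUMO protease gene, and OS9 rose by 0.38 ± 0.07 and 0.18 ± 0.06. HIF3A and ARNT2, the related HIF subunits, stayed under the expression filter.

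Among paralogs of the members, 6 of 23 tested genes rose and 5 fell (47.8%, close to the 46.1% of all genes; median 0.02). KDM3B (-0.05 ± 0.04, adjusted p = 0.33) and JMJD1C (-0.12 ± 0.05, adjusted p = 0.0919) were not called and had the sign of KDM3A, which fell. VEGFB, a vascular growth factor gene, fell (-0.29 ± 0.07, adjusted p = 0.0116), whereas VEGFA rose, and VEGFC had 0 counts. AK3, another matrix kinase gene, fell (-0.80 ± 0.11), whereas AK4 rose. NDRG3 and NDRG4 rose (0.40 ± 0.05 and 2.38 ± 0.34), whereas NDRG1 fell, and WSB2 fell (-0.18 ± 0.06), whereas WSB1 rose. PLOD3 rose (0.74 ± 0.10), as did PLOD1. NDRG2, CITED1, CITED4, AK1 and P4HTM were not called. Differences between paralogs were not tested.

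**Figure D5:**
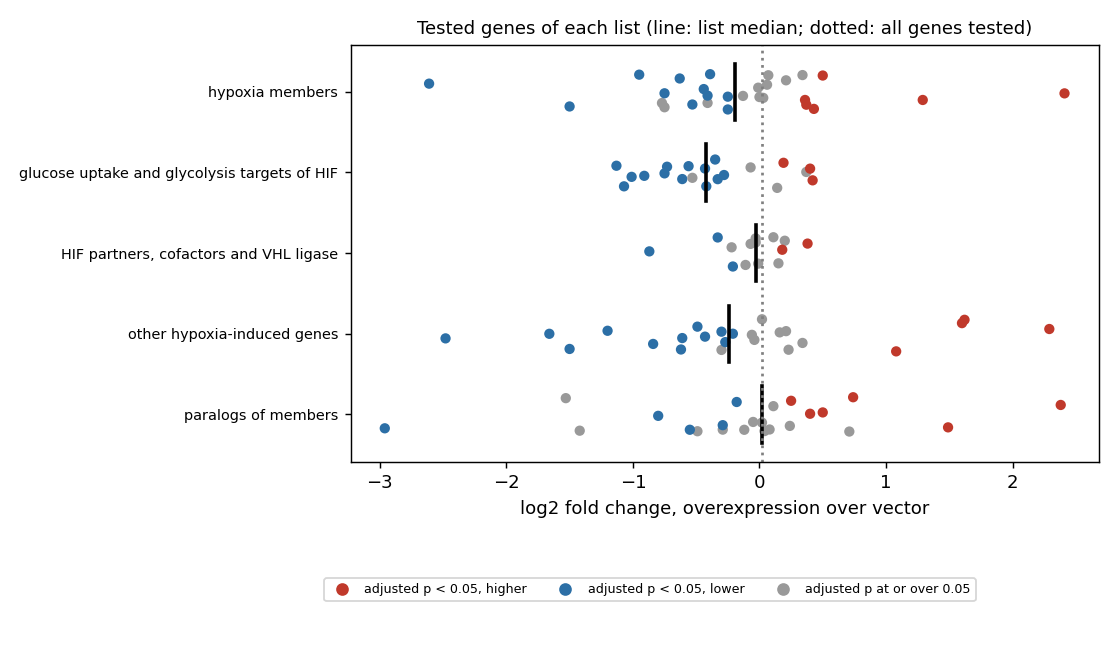
Log2 fold changes of the tested genes of the hypoxia members and of the 4 further lists, with points coloured by call and spread vertically for legibility. Black lines mark list medians, from -0.42 for glucose uptake and glycolysis to 0.02 for paralogs, and the dotted line marks the median of all genes tested (0.02).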

How the data were processed

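The deposited table held expected counts, that is estimated counts rounded to whole numbers, for 59248 gene symbols in 6 libraries whose totals differ. The submitters' processing notes name STAR 2.7.10a, fastp 0.23.2, DESeq2, StringTie and build hg38, without roles; annotation release and strand setting are not given in the sources used here. A value of 4 was more frequent than 3 in every column, so 1 read pair may add more than 1 count. A value of 1 was more frequent still, at 2716 to 3651 times per column against 1069 to 1154 for 4. How many counts 1 read pair adds is therefore not settled, and the floor given for CA9 and P4HA2 assumes 4.

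The groups were compared in edgeR 4.0.16 (R 4.3.3) with its quasi-likelihood test, without covariates, after filterByExpr and TMM scaling. Adjusted p-values are Benjamini-Hochberg values over the 21055 genes kept, and standard errors were derived from the F statistic. The fit was also run on simulated counts in which few genes changed, unlike in these data, and no result above rests on that run. CPM values use TMM-adjusted library sizes. Exon lengths, spans and neighbours came from GENCODE 29 (GRCh38), which matched 37661 symbols. All members are named; values in every library are given for called members changed at least 1.5-fold, the HIF subunits and the oxygen sensors, and for others where a library stood apart. Of each pathway list up to 2 risen and 2 fallen genes with the smallest adjusted p, and paralogs of called members, are named. Some genes that this rule selects are not reported here. The members and lists were chosen with earlier results of these data known. Alternatives were DESeq2 1.42.0, limma-voom (limma 3.58.1), other scalings and filters, values divided by 4, a replicate block and each library left out.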

Additional observations from a re-analysis of the deposited data

How the results depend on the processing

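All 17 called members kept their call with DESeq2, limma-voom, both other scalings, both other filters, values divided by 4, the replicate block and without vector replicate 1 or 2; 16 kept it without overexpression replicate 1 or 2 or vector replicate 3, and 15 without overexpression replicate 3. EGLN3 and NDRG1 are the calls lost. Deviations from the group means were almost uncorrelated between libraries of the same number (correlations 0.00521, 0.00125 and 0.023). Pairs of differing number lay between -0.0172 and 0.0123. With 3 libraries per group and all pairs near 0, this cannot tell whether the number is a pairing. With the replicate block 6 members rose and 12 fell. The median of the members was -0.144 with upper-quartile factors, -0.0564 under the stricter filter, -0.126 with values divided by 4, and -0.309 to -0.182 with each library left out in turn; fewer members were tested in the filter and division settings, 26 and 27. The count of risen HIF partners, cofactors and ligase genes was 1 with DESeq2 and with no filter, 4 with upper-quartile factors, the stricter filter and values divided by 4, and 1 to 4 with each library left out.

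Uncalled members near 0 changed sign: RORA was at 0.12 with limma-voom, 0.048 with upper-quartile factors, 0.012 under the stricter filter, 0.0085 with values divided by 4, 0.081 with the replicate block, and -0.309 to 0.216 with each library left out; ANKRD37 at 0.037 with upper-quartile factors, 0.0037 under the stricter filter and -0.151 to 0.12 with each library left out; MXI1 at -0.0079 to 0.0696 with each library left out. The cause was not tested. EGLN2 passed the threshold with DESeq2 (adjusted p = 0.00386), limma-voom (0.0369), values divided by 4 (0.0454), the replicate block (0.0267) and without overexpression replicate 1 (0.00577), and ANGPTL4 without overexpression replicate 1 (-1.22, adjusted p = 0.0409).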
